A study of Mus musculus with 10 samples.

Results

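The genes examined were 34 regulators of cell death and survival: members of the BCL2 family, caspases with their activators, death receptors with their adaptors, inhibitors of apoptosis proteins, and the regulators Pim1 and Trp53. They were taken from a list of symbols, and all 34 were found among the 52636 genes of the count table by way of GRCm38 annotation. Of these, 31 were abundant enough to test, out of 13469 genes tested in all. The libraries came from nonclassical monocytes, the patrolling monocyte subset, sorted at 98% purity from bone marrow, with 5000 to 10000 cells collected for each. There were 5 libraries from mice without the collagen-binding inhibitory receptor LAIR1 (genotype LAIR1-/-, called LAIR1KO) and 5 from mice that carry it (LAIR1+/+, called WT). The mice had no treatment, and the labels state neither their age, sex and strain nor the design of the Lair1 allele. They also leave unsaid whether the libraries are from separate animals, so p-values measure only the spread between these libraries.

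In the mitochondrial pathway of apoptosis, BH3-only proteins sense damage or loss of growth signals and either block the anti-apoptotic BCL2 proteins or engage the effectors BAX and BAK directly. The effectors then open the outer mitochondrial membrane, cytochrome c leaves and joins APAF1, and the complex activates caspase-9. In a separate pathway, death receptors recruit FADD and caspase-8 at the cell surface. Monocytes are short-lived cells, and nonclassical monocytes are known to depend on survival signals such as those through CX3CR1 and on the nuclear receptor NR4A1.

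Total counts ran from 12106209 to 15356924 per library. Lair1 had 0 to 10 counts in LAIR1KO libraries and 4230 to 5579 in WT libraries. The 12 markers of nonclassical monocytes summed to 11040 to 16392 CPM (counts scaled to a common library size) in LAIR1KO and to 14811 to 17085 CPM in WT, and 0 of them passed the test for a difference. All 8 markers of myeloid progenitors and all 8 of dividing cells were higher in LAIR1KO, and their sums did not overlap. The progenitor sum was 3184 to 6712 CPM in LAIR1KO and 523.5 to 1393 CPM in WT, and the dividing-cell sum was 391.7 to 732 CPM in LAIR1KO and 187 to 269.6 CPM in WT. Both sums were highest in LAIR1KO replicates 4 and 5. Of 7 tested resident macrophage markers, 6 were lower in LAIR1KO, and the sum of the list was 833 to 1070 CPM in LAIR1KO and 1521 to 2053 CPM in WT. No marker of these lists was at 0 in every library. In bulk RNA, fewer cells of a type and less RNA per cell cannot be told apart.

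Of the 31 tested genes, 1 was higher and 1 was lower in LAIR1KO at an adjusted p under 0.05. Bcl2, the founding anti-apoptotic protein of the family, rose 1.72-fold, and Bbc3, which encodes the BH3-only protein PUMA, fell to 0.655 of its WT level. Across all 13469 genes, 6.79% passed, 5.11% as higher and 1.68% as lower, so 2 of 31 is near the share of all genes. The groups did not overlap for the same 2 genes, beside 7.66% of all genes. An unadjusted p under 0.05 was reached by 6 of the 31, beside 21.8% of all genes. The median log2 fold change of the 31 was -0.17, and 21 of them lay below 0, beside 50.3% of all genes. Scaling by library totals instead of the trimmed mean of M-values (TMM) moved the median of all genes to 0.13 and that of the 31 genes to -0.05, with 19 of the 31 and 33.7% of all genes below 0.

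**Figure D1:**
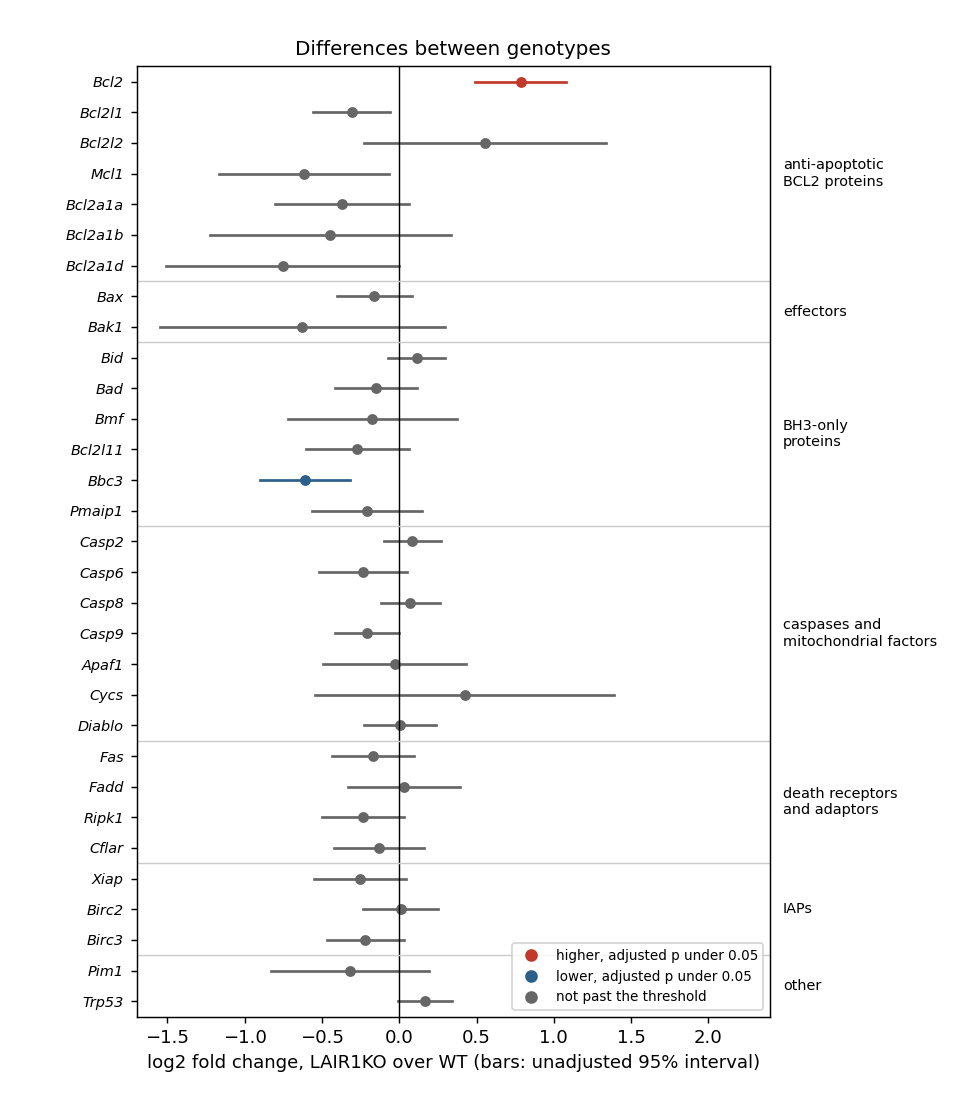
Log2 fold change of LAIR1KO over WT for the 31 tested genes, grouped by role, from edgeR's quasi-likelihood fit over all genes; points are estimates and bars are unadjusted 95% intervals. Bcl2 lies at 0.79 and Bbc3 at -0.61; both are coloured, and the 29 grey genes did not pass.

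The anti-apoptotic BCL2 proteins hold the effectors and the BH3-only proteins in check. Levels per kilobase of exon allow a rough comparison between genes, as the length counts every annotated exon, used in these cells or not. On that scale Mcl1 was the most abundant of the 34 genes in both genotypes. It averaged 165 ± 48.7 CPM per kilobase in LAIR1KO and 253 ± 105.5 in WT (SD, n = 5 each), and 98.7% of all tested genes had a lower mean level. The next anti-apoptotic genes lay far below it. Bcl2 averaged 19.6 ± 3.60 CPM per kilobase in LAIR1KO and 11.4 ± 1.43 in WT, and Bcl2a1a averaged 11.1 ± 2.71 in LAIR1KO and 14.3 ± 2.82 in WT. In WT the spreads of Bcl2 and Bcl2a1a overlapped, so their order there is not resolved.

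**Figure D2:**
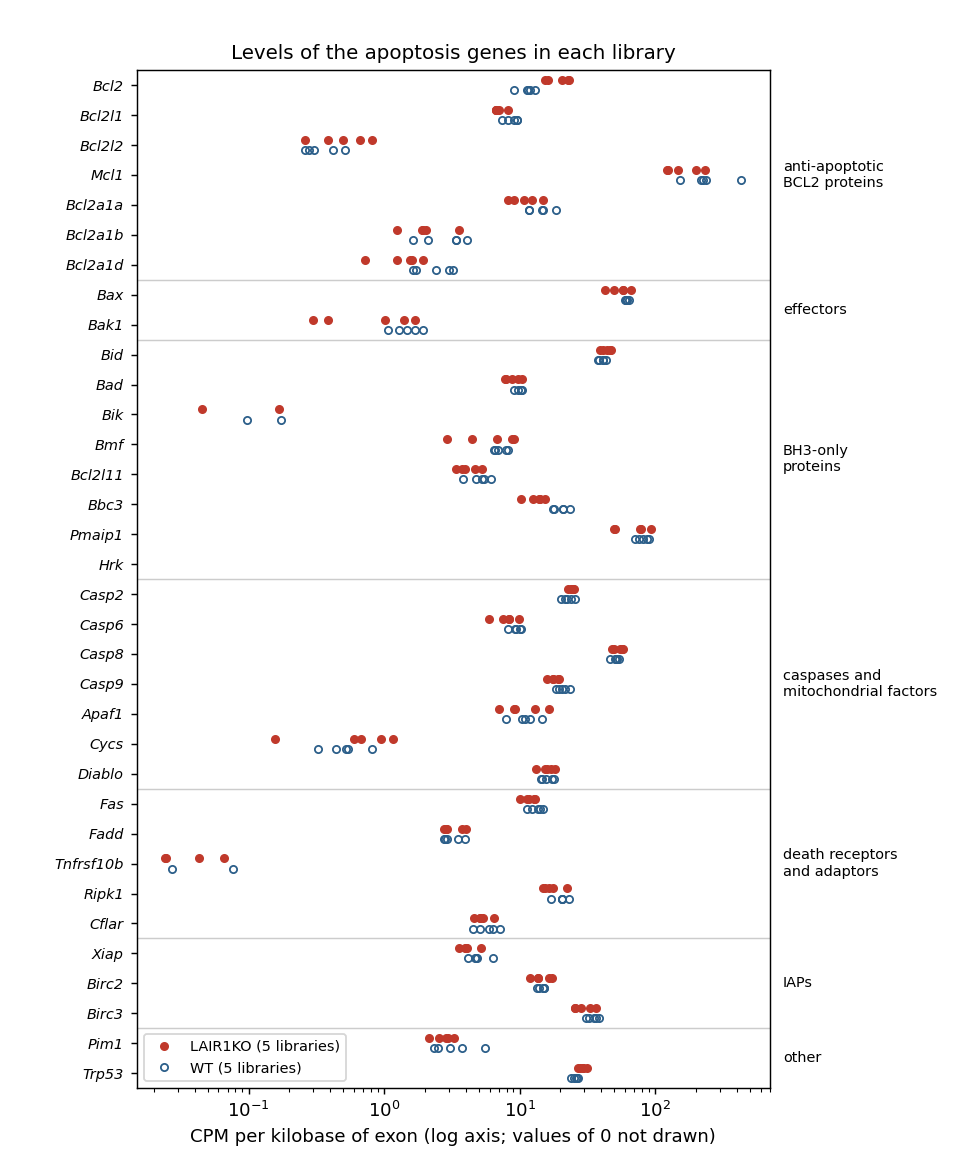
CPM per kilobase of exon on a log axis for all 34 genes, grouped by role, with 1 point per library (LAIR1KO filled and above, WT open and below). Mcl1 stands highest, Bik and Tnfrsf10b lie near the detection limit, and Hrk, at 0 in every library, has no point.

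Bcl2 (ENSMUSG00000057329, GRCm38 chromosome 1, 106538178 to 106714274, minus strand) had 149, 212, 141, 188 and 208 CPM in LAIR1KO replicates 1 to 5, against 83.2, 104, 119, 109.8 and 105 CPM in WT replicates 1 to 5. The lowest LAIR1KO library lay above the highest WT library. On the log2 scale the difference was 0.79 ± 0.14 (SE; adjusted p = 0.00449, edgeR), a fold of 1.72 with an unadjusted 95% interval of 1.41 to 2.11. The gene passed in all 20 alternative fits (log2 fold change 0.68 to 0.92), and without LAIR1KO replicates 4 and 5 together it stood at 0.68 (adjusted p = 0.0375). The progenitor and dividing-cell marker sums given above also separated the genotypes without overlap, and their part in the Bcl2 difference was not tested. The LAIR1KO library with the lowest progenitor sum, replicate 3, also had the lowest Bcl2 of its group, while the highest Bcl2 value was in replicate 2, whose progenitor sum of 3895 CPM was the third highest.

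Mcl1 (ENSMUSG00000038612, GRCm38 chromosome 3, 95658788 to 95663176, plus strand), which encodes a short-lived protein that neutralises BH3-only proteins and BAK, did not pass. It had 687, 507, 425, 416 and 791 CPM in LAIR1KO replicates 1 to 5, against 521, 774, 1478, 807 and 744 CPM in WT replicates 1 to 5. The groups overlapped, and WT replicate 3 stood far above all other libraries. The log2 fold change was -0.61 ± 0.25 (adjusted p = 0.178), and without WT replicate 3 it was -0.33 (adjusted p = 0.414).

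Bcl2l1, which encodes BCL-XL, averaged 32.4 ± 3.02 CPM in LAIR1KO and 40.1 ± 4.34 CPM in WT (SD, n = 5 each; log2 fold change -0.31 ± 0.11, adjusted p = 0.134). Its unadjusted 95% interval, a fold of 0.680 to 0.959, lay below 1. So did those of Mcl1 (0.446 to 0.956), Bcl2a1d (0.352 to 0.999) and Casp9 (0.751 to 0.998), which also did not pass. Bcl2l2, which encodes BCL-W, was rare, with 16 to 55 counts per LAIR1KO library and 15 to 31 per WT library. Its log2 fold change of 0.56 ± 0.36 (adjusted p = 0.413) had a fold interval of 0.853 to 2.53.

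The Bcl2a1 genes are mouse copies of the anti-apoptotic gene for A1, which is induced by NF-kB in myeloid cells. They lie together on chromosome 9, and their coding sequences are nearly the same, so reads of one could be counted for another. Reads that fit several copies could also have been left out, as the counting tool is unknown, so their levels are uncertain. The first 60 coding bases are shown, from the GENCODE M21 transcripts on GRCm38, because many of the differences between the copies lie there; capitals mark positions at which the 3 copies are not all alike.
Bcl2a1a: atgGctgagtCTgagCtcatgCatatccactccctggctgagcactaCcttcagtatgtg
Bcl2a1b: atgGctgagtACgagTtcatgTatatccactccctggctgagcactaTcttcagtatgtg
Bcl2a1d: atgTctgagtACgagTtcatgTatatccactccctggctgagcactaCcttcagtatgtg
Of 519 coding bases, 12 varied among these copies, 6 of them in this window, and the annotation holds a further copy, Bcl2a1c. Pairwise identity was 97.9% to 98.8%, and Bcl2a1a and Bcl2a1d shared an unbroken run of 314 bases.

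Most reads of the Bcl2a1 genes were assigned to Bcl2a1a, with 92 to 185 counts per LAIR1KO library and 114 to 196 per WT library. Summed over the 3 copies, the level was 12.0 ± 3.08 CPM in LAIR1KO and 16.2 ± 2.60 CPM in WT (SD, n = 5 each), and the groups overlapped. Bcl2a1c, which is not in that sum, averaged 1.48 ± 0.63 CPM in LAIR1KO and 1.99 ± 0.48 CPM in WT. The single copies had log2 fold changes of -0.37 ± 0.20 for Bcl2a1a, -0.45 ± 0.36 for Bcl2a1b and -0.75 ± 0.35 for Bcl2a1d (adjusted p = 0.312, 0.517 and 0.229).

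The make-up of the anti-apoptotic transcripts was dominated by Mcl1. It took 74.2% to 84.8% of their summed CPM per kilobase in LAIR1KO libraries and 79.4% to 91.9% in WT libraries. Bcl2 took 6.77% to 12.8% in LAIR1KO and 2.75% to 4.74% in WT, with no overlap, and this share depends on the level of Mcl1 as well as on that of Bcl2.

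**Figure D3:**
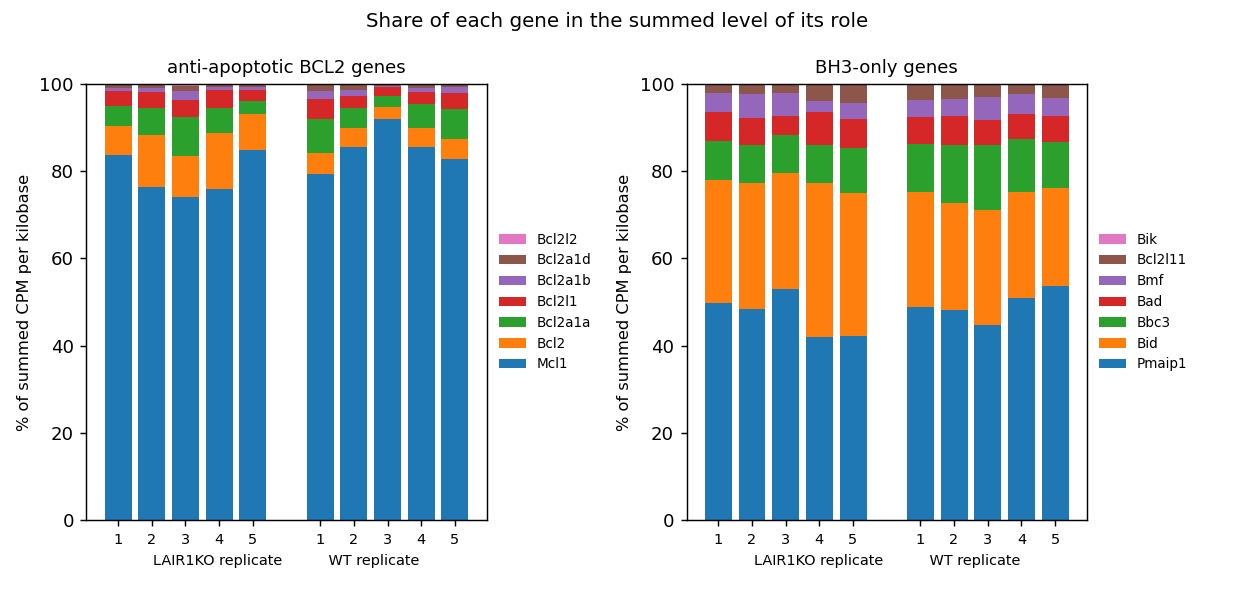
Share of each gene in the summed CPM per kilobase of exon of the anti-apoptotic genes (left) and the BH3-only genes (right), 1 bar per library, LAIR1KO replicates left of WT replicates. Bcl2 takes 6.77% to 12.8% of the left bars in LAIR1KO against 2.75% to 4.74% in WT, and Pmaip1 with Bid make up most of every right bar.

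Of the pore-forming effectors, Bax was the more abundant gene, with 97.2% to 99.3% of the pair's summed CPM per kilobase in LAIR1KO libraries and 96.9% to 98.3% in WT libraries. It had 104, 91.7, 91.8, 78.6 and 67.1 CPM in LAIR1KO replicates 1 to 5, against 101, 93.5, 95.3, 98.2 and 96.3 CPM in WT replicates 1 to 5. LAIR1KO replicates 4 and 5 lay below every other library, and the remaining LAIR1KO libraries lay just outside the narrow WT range, replicate 1 above it and replicates 2 and 3 below it. The log2 fold change was -0.16 ± 0.11 (adjusted p = 0.445), and -0.02 without those 2 libraries.

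Bak1, the gene of the other effector, was at 2.43, 4.10, 3.38, 0.935 and 0.725 CPM in LAIR1KO replicates 1 to 5, against 4.10, 3.53, 4.69, 3.10 and 2.56 CPM in WT replicates 1 to 5. The 2 lowest values were again those of LAIR1KO replicates 4 and 5. These levels rest on 10 to 61 counts per LAIR1KO library and 33 to 63 per WT library (log2 fold change -0.63 ± 0.43, adjusted p = 0.435). Reads of the antisense gene Ggnbp1, with a mean of 18.2 counts against 40.4 for Bak1, could not be told apart where the exons overlap, as the strand setting of the counting is unknown.

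BH3-only proteins start the mitochondrial pathway. Bbc3 (ENSMUSG00000002083, GRCm38 chromosome 7, 16308393 to 16318205, plus strand) encodes PUMA, which binds all the anti-apoptotic BCL2 proteins and is a classical target of p53. It had 30.0, 29.5, 32.6, 21.7 and 26.5 CPM in LAIR1KO replicates 1 to 5, against 38.2, 44.4, 49.9, 44.4 and 37.3 CPM in WT replicates 1 to 5. The highest LAIR1KO library lay below the lowest WT library. The log2 difference was -0.61 ± 0.13 (SE; adjusted p = 0.0158, edgeR), a fold of 0.655 with an unadjusted 95% interval of 0.536 to 0.801.

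Bbc3 passed in 17 of 20 alternative fits. It did not pass without LAIR1KO replicates 4 and 5 together (-0.48, adjusted p = 0.0802), without WT replicates 1 and 4 together (-0.65, adjusted p = 0.0656), or after removal of the dependence on GC content and exon length within libraries (-0.41, adjusted p = 0.209). Its transcripts hold 67.1% G and C, more than those of 99.9% of tested genes. The 14 tested genes at or above that GC content, Bbc3 among them, had a median log2 fold change of -0.47, and only Bbc3 (7.14% of them) passed as lower. The part of GC content in the Bbc3 difference was not tested beyond that fit.

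Because Bbc3 is a textbook target of p53, the 250 bases before each annotated start of RefSeq (GRCm38.p6) were searched for the p53 response element. At most 3 mismatches were allowed over its joined decamers together, and none in their cores. The element reads the same on both strands. It was present in the windows of 2 of the 31 members that had one, Bbc3 and Trp53, beside 0.566% of 27025 genes. Both stretches are on the plus strand, at chr7:16309446-16309545 for Bbc3 and chr11:69580244-69580343 for Trp53, and capitals mark the element.
Bbc3: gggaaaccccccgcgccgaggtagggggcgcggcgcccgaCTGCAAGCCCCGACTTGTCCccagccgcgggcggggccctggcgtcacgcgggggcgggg
Trp53: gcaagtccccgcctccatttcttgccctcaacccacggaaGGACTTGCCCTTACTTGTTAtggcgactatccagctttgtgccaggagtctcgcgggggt
The element starts 97 bases before a RefSeq start of Bbc3 and 75 bases before that of Trp53. This Bbc3 start lies inside the GENCODE gene span given above, so the element is downstream of the first base of that span. A match of letters describes these windows and does not show binding.

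The most abundant BH3-only gene was Pmaip1, which encodes NOXA, a partner of MCL1. It had 214, 212, 256, 135 and 139 CPM in LAIR1KO replicates 1 to 5, against 220.4, 209, 193, 238 and 246 CPM in WT replicates 1 to 5. LAIR1KO replicates 4 and 5 stood below every other library, while replicates 1 to 3 lay among or above the WT values. The log2 fold change was -0.21 ± 0.17 (adjusted p = 0.508), and 0.04 without LAIR1KO replicates 4 and 5, so its sign rests on them.

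Bmf, whose product is released from the cytoskeleton under stress, had the same shape and is given because its values were seen to split. It had 35.6, 45.8, 47.6, 15.3 and 23.5 CPM in LAIR1KO replicates 1 to 5, against 34.5, 33.8, 43.3, 41.5 and 36.4 CPM in WT replicates 1 to 5. The log2 fold change was -0.17 ± 0.25 (adjusted p = 0.745), and 0.18 without LAIR1KO replicates 4 and 5.

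**Figure D4:**
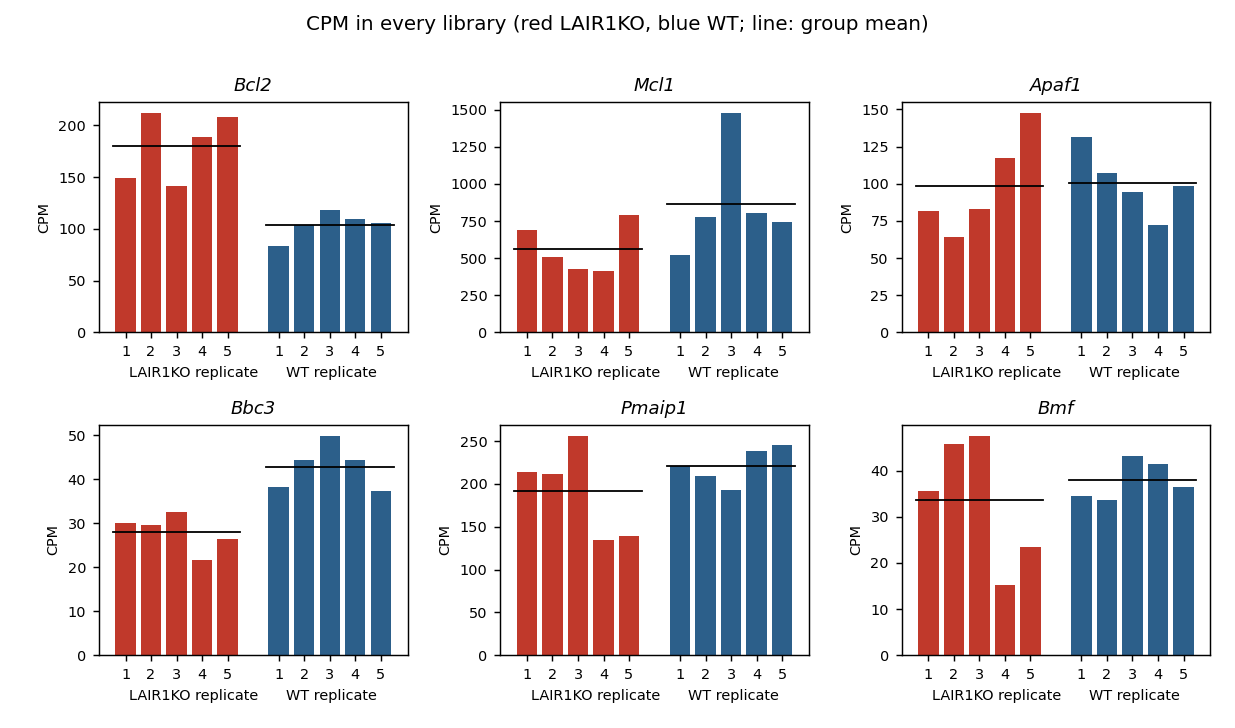
CPM in every library for 6 genes, LAIR1KO replicates left of WT replicates, with a line at each group's mean. Bcl2 and Bbc3 separate the genotypes, WT replicate 3 stands out for Mcl1 at 1478 CPM, and LAIR1KO replicates 4 and 5 are the lowest libraries for Pmaip1 and Bmf and lie above the other LAIR1KO libraries for Apaf1.

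As a share of the summed CPM per kilobase of the BH3-only genes, Bbc3 took 8.65% to 10.4% in LAIR1KO and 10.48% to 14.9% in WT, and Bid took 26.7% to 35.3% in LAIR1KO and 22.6% to 26.4% in WT. Such shares depend on the levels of the other genes of the class as well. The share of Bid was highest in LAIR1KO replicates 4 and 5, the libraries with the lowest Pmaip1. The remaining BH3-only genes did not pass. Bid, which links caspase-8 to the mitochondria, averaged 156 ± 12.2 CPM in LAIR1KO and 144 ± 8.05 CPM in WT (SD, n = 5 each; log2 fold change 0.11 ± 0.09, adjusted p = 0.488). Its exons overlap those of the antisense gene Bcl2l13, with a mean of 822.9 counts against 2058.5 for Bid, over 17.7% of their length. Bcl2l11, which encodes BIM, averaged 33.9 ± 6.001 CPM in LAIR1KO and 40.8 ± 7.13 CPM in WT (log2 fold change -0.27 ± 0.15, adjusted p = 0.337). Bad, whose product is silenced by growth factor kinases, averaged 22.8 ± 2.87 CPM in LAIR1KO and 25.3 ± 1.36 CPM in WT (adjusted p = 0.518), and the antisense gene Gpr137 overlaps 20.5% of its exons with a mean of 369.9 counts against 329 for Bad.

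Both other members of the class were too rare to test. Bik had 5 counts in all LAIR1KO libraries together and 6 in all WT libraries. Hrk had 0 counts in each of the 10 libraries. By counting error alone, a 0 in a single library allows a level of up to 0.192 to 0.252 CPM (3 counts). A 0 in all 10 libraries together allows less than that.

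Among the caspases of the 34 genes, Casp8, the initiator caspase of death receptors, was the most abundant per kilobase. It had 168, 138, 158, 166 and 144 CPM in LAIR1KO replicates 1 to 5, against 148, 151, 146, 157 and 133 CPM in WT replicates 1 to 5. The groups overlapped broadly (log2 fold change 0.07 ± 0.09, adjusted p = 0.691; fold interval 0.921 to 1.20). Casp9, the initiator that APAF1 activates, had the smallest p of the class. It had 102, 82.9, 99.6, 91.7 and 91.0 CPM in LAIR1KO replicates 1 to 5, against 107, 101, 122, 97.1 and 111 CPM in WT replicates 1 to 5. The upper LAIR1KO values reached into the WT range (log2 fold change -0.21 ± 0.09, adjusted p = 0.224).

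Casp2, a caspase activated by the PIDDosome, averaged 170.2 ± 6.31 CPM in LAIR1KO and 160.4 ± 14.5 CPM in WT (SD, n = 5 each; adjusted p = 0.617). Casp6, an effector caspase, averaged 44.7 ± 8.08 CPM in LAIR1KO and 52.6 ± 4.602 CPM in WT (adjusted p = 0.333), and its lowest values of 41.8 and 33.2 CPM were in LAIR1KO replicates 4 and 5. Diablo, whose product frees caspases from their inhibitors, averaged 98.6 ± 11.8 CPM in LAIR1KO and 98.3 ± 9.84 CPM in WT (adjusted p = 0.987; fold interval 0.855 to 1.18). The antisense gene B3gnt4 overlaps 21.5% of its exons, with a mean of 9.9 counts against 1348.5 for Diablo. Gm49027, on the same strand, overlaps 19.3% of them and holds a copy of its coding bases at 99.2% identity. Reads that fit both genes could have been left out, so the level of Diablo is uncertain.

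Apaf1, the scaffold of the apoptosome, was also singled out after its values were seen. It had 81.4, 63.9, 83.1, 117 and 148 CPM in LAIR1KO replicates 1 to 5, against 131, 107, 94.5, 72.0 and 98.7 CPM in WT replicates 1 to 5. LAIR1KO replicates 4 and 5 were the highest of their group, and the WT values lay within the LAIR1KO range (log2 fold change -0.03 ± 0.21, adjusted p = 0.960, and -0.40 without LAIR1KO replicates 4 and 5). Cycs, which encodes cytochrome c, had only 8 to 62 counts per LAIR1KO library and 16 to 33 per WT library. Its 318 coding bases have copies of 90.1% to 100% identity in 10 other annotated genes, so its level is uncertain (log2 fold change 0.42 ± 0.45, adjusted p = 0.639).

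In the death receptor pathway no member passed (edgeR; 0 of 4 at an unadjusted p under 0.05, and 0 by DESeq2 or limma voom). Ripk1, the kinase that passes signals of the TNF receptor towards survival or death, was the most abundant and had the smallest p. It had 138, 128, 124, 147 and 186 CPM in LAIR1KO replicates 1 to 5, against 141, 173, 192, 172 and 172 CPM in WT replicates 1 to 5. LAIR1KO replicates 1 to 3 lay below every WT library, and LAIR1KO replicate 5 was among the highest values (log2 fold change -0.23 ± 0.12, adjusted p = 0.286). The antisense gene Serpinb6a overlaps 2.89% of its exons.

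Fas, the receptor of FAS ligand, averaged 24.3 ± 2.37 CPM in LAIR1KO and 27.3 ± 2.86 CPM in WT (SD, n = 5 each; adjusted p = 0.460). Its adaptor Fadd averaged 12.7 ± 2.26 CPM in LAIR1KO and 12.5 ± 2.01 CPM in WT (adjusted p = 0.947). Cflar, whose product FLIP blocks caspase-8 at the receptor, averaged 67.5 ± 8.78 CPM in LAIR1KO and 73.9 ± 13.2 CPM in WT (adjusted p = 0.622). Tnfrsf10b, the mouse receptor for TRAIL, had 12 counts in all LAIR1KO libraries and 7 in all WT libraries and was not tested.

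Inhibitors of apoptosis proteins bind caspases or attach ubiquitin to signalling complexes, and none of the 3 passed (edgeR; 0 of 3 at an unadjusted p under 0.05, and 0 by DESeq2 or limma voom). Birc3, which encodes cIAP2, led them with 182, 128, 167, 142 and 129 CPM in LAIR1KO replicates 1 to 5, against 192, 163, 154, 178 and 184 CPM in WT replicates 1 to 5. The groups overlapped (log2 fold change -0.22 ± 0.12, adjusted p = 0.292). Birc2, which encodes cIAP1, averaged 67.1 ± 10.2 CPM in LAIR1KO and 66.6 ± 3.60 CPM in WT, and Xiap, which inhibits caspases directly, averaged 39.4 ± 5.91 CPM in LAIR1KO and 47.0 ± 7.78 CPM in WT (SD, n = 5 each; adjusted p = 0.9754 and 0.308).

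Trp53, the gene of p53, had 113, 119, 118, 108 and 127 CPM in LAIR1KO replicates 1 to 5, against 97.4, 107, 102, 109 and 105 CPM in WT replicates 1 to 5. Only LAIR1KO replicate 4 lay within the WT range. The log2 fold change was 0.17 ± 0.08 (adjusted p = 0.247; fold interval 0.996 to 1.27), and the gene passed as higher when libraries were scaled by their totals (0.30, adjusted p = 0.0419). Pim1, a kinase that inactivates BAD and is induced by cytokines, averaged 9.24 ± 1.44 CPM in LAIR1KO and 11.6 ± 4.38 CPM in WT (SD, n = 5 each; adjusted p = 0.474).

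For the 29 genes that did not pass, the unadjusted 95% interval of the fold shows what these libraries could resolve. It lay within 1.5-fold in both directions for 19 genes and within 2-fold for 23. The intervals of Bcl2l2, Mcl1, Bcl2a1b, Bcl2a1d, Bak1 and Cycs reached past 2-fold, and all of these but Mcl1 had few counts.

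The spread within LAIR1KO was the wider one for most of these genes. The coefficient of variation was larger in LAIR1KO than in WT for 23 of the 31 genes (74.2%), beside 55.0% of all tested genes. LAIR1KO replicates 4 and 5, which had the highest progenitor and dividing-cell sums, both lay below the other LAIR1KO libraries for 11 of the 31 genes (35.5%), beside 20.8% of all tested genes. Those 11 were Bcl2l2, Bcl2a1a, Bax, Bak1, Bid, Bmf, Bbc3, Pmaip1, Casp6, Diablo and Xiap. Both lay above the other LAIR1KO libraries for 3 genes (9.68%), namely Bcl2l11, Apaf1 and Ripk1, beside 19.5% of all tested genes. Without these libraries the median log2 fold change of the 31 genes was -0.12, and 21 of them lay below 0, though not the same genes: Bmf and Pmaip1 moved above 0, and Fadd and Birc2 moved below it.

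The rest of the pathway was described with 5 further lists, whose counts stand beside the 5.11% of all genes that passed as higher, the 1.68% that passed as lower and the 50.3% with a fold change below 0. Among 21 tested genes of the wider BCL2 family and of mitochondrial dynamics, 0 passed (edgeR; 5 at an unadjusted p under 0.05), and the median log2 fold change was -0.03. The smallest p-values were those of Fis1, a receptor in mitochondrial fission, at 182 ± 31.2 CPM in LAIR1KO and 243 ± 19.7 CPM in WT (log2 fold change -0.41 ± 0.12, adjusted p = 0.0561), and of the fission GTPase gene Dnm1l (0.35 ± 0.13, adjusted p = 0.124). Fis1 passed as lower in 7 of 20 alternative fits, and DESeq2 and limma voom each called it alone of the list (adjusted p = 0.0124 by DESeq2 and 0.0480 by voom). Leaving out LAIR1KO replicate 3 or WT replicate 5 also brought it past the threshold (adjusted p = 0.0221 and 0.0489). Dnm1l passed as higher with library totals (0.48, adjusted p = 0.0401).

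Among 19 tested genes of other caspases, their substrates and inhibitors, 2 were higher and 1 lower, with a median of -0.06. Birc5, which encodes survivin and also belongs to the dividing-cell markers, stood at 68.2 ± 15.5 CPM in LAIR1KO and 31.5 ± 8.14 CPM in WT (SD, n = 5 each; log2 fold change 1.11 ± 0.20, adjusted p = 0.00494). Parp1, a DNA damage sensor cleaved by caspases, stood at 169.9 ± 36.4 CPM in LAIR1KO and 105 ± 9.36 CPM in WT (0.69 ± 0.14, adjusted p = 0.00860). Birc5 and Parp1 were highest in LAIR1KO replicates 4 and 5, and each passed in 19 of 20 alternative fits, the exception being the fit without WT replicates 1 and 4 (adjusted p = 0.0577 for Birc5 and 0.0774 for Parp1). Xaf1, an interferon-induced antagonist of XIAP, fell (-0.56 ± 0.16, adjusted p = 0.0499). It kept its call when LAIR1KO replicate 1 or WT replicate 5 was left out, and lost it without any other single library (adjusted p = 0.0559 to 0.120). DESeq2 called Birc5, Parp1 and Xaf1, and limma voom called Birc5 and Parp1 only.

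Of 23 tested death receptor and necroptosis genes, 1 was higher and 1 lower (median -0.11). Mlkl, the pore protein of necroptosis, stood at 28.0 ± 6.27 CPM in LAIR1KO and 16.1 ± 3.78 CPM in WT (SD, n = 5 each; log2 fold change 0.80 ± 0.19, adjusted p = 0.0222). Zbp1, an interferon-induced sensor of nucleic acids upstream of it, stood at 91.5 ± 10.47 CPM in LAIR1KO and 125 ± 14.8 CPM in WT (-0.45 ± 0.11, adjusted p = 0.0270). Mlkl passed in 14 of the 20 alternative fits and Zbp1 in 10. DESeq2 and limma voom each called both, and DESeq2 called Daxx as lower in addition. Leaving out LAIR1KO replicate 5, WT replicate 1, 3 or 4 each ended the call of Mlkl (adjusted p = 0.0518 to 0.0603), and leaving out LAIR1KO replicate 2, 4 or 5 or WT replicate 1, 3 or 4 each ended that of Zbp1 (adjusted p = 0.0591 to 0.0723).

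In the p53 pathway 1 of 21 tested genes passed, with a median of -0.11. It was Xpc, a sensor in nucleotide excision repair, at 97.6 ± 12.0 CPM in LAIR1KO and 75.9 ± 3.89 CPM in WT (SD, n = 5 each; log2 fold change 0.36 ± 0.10, adjusted p = 0.0499). It kept its call without LAIR1KO replicate 3 and lost it without any other single library (adjusted p = 0.0761 to 0.134). DESeq2 called Xpc alone of the list, and limma voom called 0 genes of it. Of 23 tested genes of survival signalling 1 was lower, and 20 of the 23 fold changes lay below 0 (median -0.21). All 12 nonclassical monocyte markers, of which Csf1r, Cx3cr1 and Nr4a1 are on both lists, also lay below 0 (median -0.25). The lower gene was Trib3, a stress-induced pseudokinase that restrains AKT, at 1.501 ± 0.333 CPM in LAIR1KO and 3.26 ± 0.911 CPM in WT (-1.11 ± 0.29, adjusted p = 0.0387). It kept its call without LAIR1KO replicate 3, WT replicate 1 or WT replicate 5, and lost it without any other single library (adjusted p = 0.0582 to 0.09995). DESeq2 and limma voom also called Trib3, and DESeq2 called Relb and Csf2rb as lower in addition.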

How the data were processed

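The authors deposited raw read counts per Ensembl gene. The aligner was GSNAP and the build GRCm38.p5, per the submitters' processing notes; counting tool, annotation release and strand setting: not given in the sources used here. Columns were matched to libraries by the identifier in each title, and 0 were left over. Symbols, positions, exon lengths and transcript GC content came from GENCODE M21 (52489 of 52636 identifiers matched).

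Genes were kept with filterByExpr (minimum count 10, minimum total 15), scaled by TMM, and tested for LAIR1KO against WT with edgeR 4.0.16 (quasi-likelihood; R 4.3.3) without covariates. P-values were adjusted by Benjamini-Hochberg over 13469 genes, with 0.05 as the threshold. Each SE is the log2 fold change over the root of its F. The procedure was tested on simulated data. DESeq2 1.42.0 and limma 3.58.1 were alternatives, beside other scalings, filters and left-out libraries. Pairs of libraries within a group gave a chi-square of 15.5 to 78.3 per degree of freedom, above counting noise, so none was counted as a deposit of the same reads.

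Values in every library are given for genes past the threshold and, in each role, for the gene with the smallest p and the most abundant one; from each pathway list up to 4 passing genes per direction are named, or the 2 with the smallest p. Members and lists were chosen with earlier results of these data known. The p53 element search and the per-library values of Bmf and Apaf1 were chosen after their values were seen.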

Additional observations from a re-analysis of the deposited data

Results flagged for a closer look

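In 1 of the 62 groups of 5 libraries examined (31 tested genes in each genotype), the gap of a single library passed a critical value. Chance alone would be expected to mark about 1 in 20 groups. Bcl2l1 stood at 37.6 CPM in LAIR1KO replicate 1, while the other LAIR1KO libraries lay between 30.5 and 32.5 CPM. The gap to the nearest library was 0.720 of the whole range, above the critical value of 0.71. Mcl1 in WT replicate 3, at 1478 CPM beside a next highest WT value of 807 CPM, fell short of that value.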

How the results depend on the processing

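Bcl2 kept its call in all 20 alternatives tried and Bbc3 in 17. The number of genes called, 914, was 1379 with library totals, 1523 with DESeq2, 376 without LAIR1KO replicates 4 and 5, 338 without WT replicates 1 and 4, and 535 to 1170 with 1 library left out. Of the genes examined, 3 passed with library totals (Trp53 in addition) and 1, Bcl2, passed without LAIR1KO replicates 4 and 5, without WT replicates 1 and 4, and with the GC and length dependence removed. The higher share of all calls, 75.3%, was 90.1% with library totals, 62.3% with the GC and length dependence removed, 62.8% without LAIR1KO replicates 4 and 5 and 66.3% with DESeq2.

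With replicate number as a block, 600 genes passed, and Bcl2 and Bbc3 kept their calls. Of the other genes named, Fis1 passed under the block (adjusted p = 0.0478), while Xaf1 (0.1003), Zbp1 (0.0565), Xpc (0.1402) and Trib3 (0.106) did not. Same-numbered libraries did not deviate together over all genes (correlations -0.08 to 0.05, and 0 of 5 numbers matched best). With 5 numbers, these correlations cannot show whether such libraries were handled together, and the labels do not say.

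Genes near 0 changed sign, with no call in either direction, and the cause was not tested. Diablo was -0.0062 with RLE size factors, -0.0060 with DESeq2 and -0.065 with the GC and length dependence removed. Birc2 was -0.0015 with RLE, -0.00081 with the block, -0.053 without LAIR1KO replicates 4 and 5, -0.0017 with DESeq2, -0.0049 with voom and -0.11 with the GC and length dependence removed. Library totals put Apaf1 at 0.11 and Cflar at 0.0015. Without LAIR1KO replicates 4 and 5, Bmf was 0.18, Pmaip1 0.040 and Fadd -0.021. Without WT replicates 1 and 4, Fadd was -0.072 and Cflar 0.033, and Fadd was -0.051 with the GC and length dependence removed. With 1 library left out, the log2 fold change ran from -0.33 to 0.0057 for Bmf, -0.23 to 0.084 for Apaf1, -0.054 to 0.061 for Diablo, -0.056 to 0.12 for Fadd and -0.063 to 0.067 for Birc2. Bcl2l2, Bcl2a1b, Bcl2a1d, Bak1 and Cycs had 89 to 232 counts per genotype and a coefficient of variation of 23.1% to 64.0%; how much of that spread is counting error was not tested.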
